A study of Mus musculus with 16 samples.

Results

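Dense enhancer stretches of wild-type cells were defined on chromosomes 1 to 19 as chains of accessible regions that lie far from gene starts and close to each other. The peaks of 16 ATAC-seq lists were merged into 291316 regions, 211104 of which lay over 3 kb from every annotated transcript start and are called distal. Of these, 42086 had a peak in at least 3 of the 4 WT lists. Neighbours within a fixed distance were joined, the widest gap so closed being 12.496 kb, and 642 chains of 6 or more regions were kept. They held 4836 member regions, 11.5% of the distal WT regions and 1.66% of all regions. Presence in WT lists chose the members, so that their level in WT is given as a description and no test of members sets WT against another genotype. A distal accessible region is a candidate enhancer only, because neither histone marks nor contacts with a gene were measured in these lists.

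The samples were sorted HSPCs, the stem and progenitor cells of mouse marrow, with 4 libraries of each of 4 genotypes and cells of 2 mice in every library. Under the study's methods the WT controls were Ep300 fl/fl animals without Cre, P300KO animals carried Mx1-Cre and Ep300 fl/fl, TET2KO animals were Ep300 fl/fl and Tet2-/-, and P300KO_TET2KO animals carried all 3 alterations. All of them received poly(I:C), which drives the interferon-inducible Mx1-Cre, so p300 was lost after birth and Tet2 from the germ line. Mx1-Cre is not confined to blood cells, and the animals are described in the labels as matched for age within a library. Peak lists cannot show the deletion of Ep300 or Tet2, and this check of the labels was not made.

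p300, the product of Ep300, is an acetyltransferase that is recruited by transcription factors to active enhancers, where it acetylates histones. Tet2 oxidises 5-methylcytosine, largely at enhancers, and its loss is frequent in myelodysplastic syndromes and myeloid leukemia. Genes of cell identity are often flanked by many enhancers in a row, in stem cells commonly occupied by factors of the Runx, Ets, Gata and Tal1 families. Ctcf, by contrast, is bound at boundaries and loop anchors. The rule used here counts accessible regions and takes no account of signal strength, so the chains are not the super-enhancers that are ranked by a mark or by cofactor binding.

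The DNA at the strongest point of a chain is shown first because it can be compared with the strings counted further on. Each line is the plus strand of mm10, 201 bases around the summit of the member with the highest mean rank, for 7 of the 9 chains with most members. Capitals mark matches, on either strand, to the short strings named below for blood transcription factors and Ctcf.
Arid1b chr17:5189751-5189951: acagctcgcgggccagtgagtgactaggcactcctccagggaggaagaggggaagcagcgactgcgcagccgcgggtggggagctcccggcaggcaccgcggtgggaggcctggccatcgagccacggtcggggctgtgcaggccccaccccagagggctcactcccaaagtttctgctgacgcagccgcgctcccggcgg
Runx3 chr4:135069897-135070097: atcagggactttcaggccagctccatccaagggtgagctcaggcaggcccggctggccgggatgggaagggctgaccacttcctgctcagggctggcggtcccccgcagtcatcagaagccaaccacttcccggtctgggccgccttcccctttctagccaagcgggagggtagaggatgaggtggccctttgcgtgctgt
Gse1 chr8:120276472-120276672: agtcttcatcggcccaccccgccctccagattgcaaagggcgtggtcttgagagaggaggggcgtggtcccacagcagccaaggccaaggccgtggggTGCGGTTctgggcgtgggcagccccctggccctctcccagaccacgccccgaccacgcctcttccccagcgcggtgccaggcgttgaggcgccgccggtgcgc
Tmem189 chr2:167753954-167754154: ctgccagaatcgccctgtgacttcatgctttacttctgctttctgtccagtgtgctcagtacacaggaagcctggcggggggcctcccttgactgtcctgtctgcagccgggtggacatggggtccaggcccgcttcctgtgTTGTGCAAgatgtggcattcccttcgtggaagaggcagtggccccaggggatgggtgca
Elmo1 chr13:20127674-20127874: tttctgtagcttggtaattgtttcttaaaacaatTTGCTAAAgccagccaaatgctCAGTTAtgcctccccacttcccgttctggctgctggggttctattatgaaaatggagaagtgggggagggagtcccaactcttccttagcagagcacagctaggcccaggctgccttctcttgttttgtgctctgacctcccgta
Exoc6 chr19:37561657-37561857: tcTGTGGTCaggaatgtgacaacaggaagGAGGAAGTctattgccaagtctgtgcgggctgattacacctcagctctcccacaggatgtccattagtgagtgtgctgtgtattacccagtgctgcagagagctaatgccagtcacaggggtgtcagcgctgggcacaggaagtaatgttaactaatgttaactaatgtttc
Cmip chr8:117224668-117224868: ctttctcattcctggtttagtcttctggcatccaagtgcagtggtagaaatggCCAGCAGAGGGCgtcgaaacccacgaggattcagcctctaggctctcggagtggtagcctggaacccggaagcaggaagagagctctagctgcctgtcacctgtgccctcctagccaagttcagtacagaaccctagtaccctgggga

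All 7 of these summits carried a peak in 16 of 16 lists, and their mean rank percentile over the 12 lists that are not WT ran from 89.0 in the Cmip chain to 97.2 in the Arid1b chain. The rank percentile is the place of a peak within its own list by −log10 p, with 100 for the strongest peak. The windows of Arid1b and Runx3 held none of the strings. The Gse1 window held a Runx string, the windows of Tmem189 and Elmo1 a Cebp string, that of Elmo1 also a Myb string, and the Cmip window a Ctcf string. The Exoc6 window held a Spi1 and a Runx string. Arid1b, Gse1, Elmo1 and Exoc6 windows were intronic and the other 3 intergenic. They lay between 11.3 kb (Exoc6) and 195.8 kb (Arid1b) from the nearest protein-coding start.

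Libraries fell into 2 deposit sets: replicates 1 and 2 of every genotype, whose labels name a merged peak file, and replicates 3 and 4, whose labels do not. Lists of set 1 held 84704 to 108200 peaks and lists of set 2 held 127437 to 134268, and read depth is not known from such lists. A member without a peak is therefore a member not detected in that list. WT replicate 1 stood apart in what follows: 66.4% of the members had a peak in it, against 92.3%, 99.6% and 99.7% in the other WT lists. Of the 2033 members with a peak in 3 WT lists, 1623 lacked only that list. Without WT replicate 1, with a peak required in all of the other 3 WT lists, 3463 members in 464 chains were found, all of them among the 4836.

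The chains covered 7.15 to 116.4 kb, with a median of 34.5 kb, and the median gap between neighbouring members was 4.34 kb. Their sizes fell off steeply, from 260 chains of 6 regions to single chains of 20, 21 and 23, and the median chain had 7. Just outside the rule stood 491 chains of 5, in which 90.8% of regions had a peak in an average list of the 12 that are not WT, at a median rank percentile of 64.8. The chains of 6 had 90.2% and 64.6, so the threshold separates no step in either value. Alone, without any neighbour within that distance, stood 14623 distal WT regions.

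**Figure D1:**
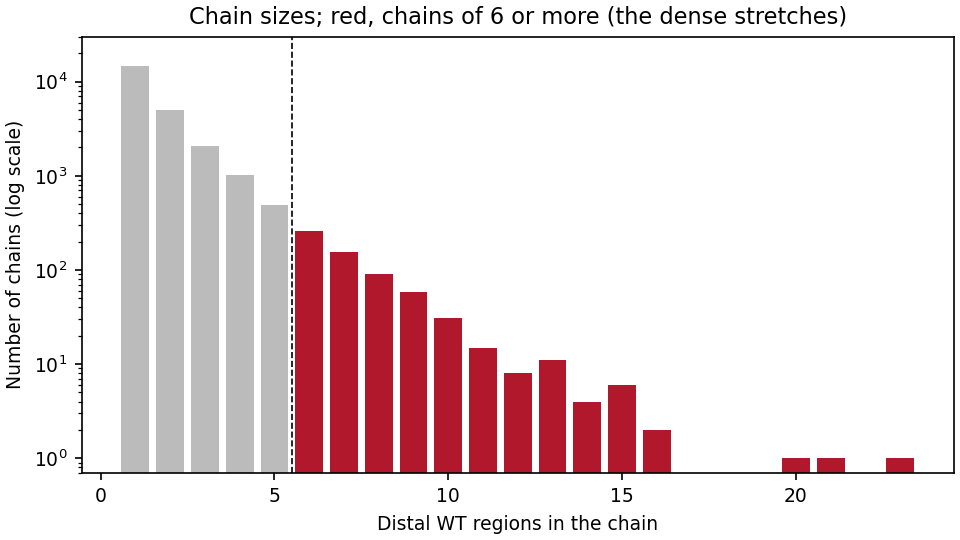
Number of chains (log scale) by the number of distal WT regions they hold, with the kept chains in red to the right of the dashed line. The count falls from 14623 single regions to 260 chains of 6 and to 1 chain of 23.

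Member regions were intronic in 47.2%, exonic in 7.67% and intergenic in 45.2% of cases. The other distal WT regions gave 45.3%, 9.95% and 44.7%, and the median member lay 36.7 kb from its nearest protein-coding start. By gene body, 411 chains took the name of the protein-coding gene holding most of their regions, and 231 with no region in such a gene took that of the nearest start. Only 217 chains lay wholly within the gene they are named for, and 201 spanned a transcript start. A chain name is thus a place and not a target.

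Within a chain the regions were unequal. The SD of the members' mean rank percentile within a chain averaged 24.4. The strongest member of the median chain had a mean rank percentile of 87.0 and the weakest 18.03, where a list without a peak counts as 0. The same member was strongest in P300KO, TET2KO and P300KO_TET2KO in 509 of 642 chains (79.3%), and in WT as well in 457 (71.2%). When the members were ordered by their WT rank alone, the top member of a chain had a peak in all 12 lists of the other genotypes in 98.9% of chains, and the bottom member in 16.2%. Every member was present in all 12 lists in 41 chains (6.39%).

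The largest chain, of 23 regions over 107.0 kb (chr17:5164800-5271788), lay inside Arid1b, which encodes a subunit of the BAF chromatin remodelling complex. In WT its members with a peak numbered 13, 21, 23 and 22, in P300KO 20, 15, 22 and 22, in TET2KO 18, 16, 23 and 23, and in P300KO_TET2KO 21, 21, 22 and 22 (replicates 1 to 4). The low counts were all in set 1, and the genotypes overlapped. Its strongest member had mean ranks of 97.5 in P300KO_TET2KO, 97.0 in TET2KO, 97.3 in P300KO and 97.3 in WT. A weak member near the centre of the chain had 0, 8.45, 22.7 and 24.2 in the same order. Arid1b held 2 further chains of 8 regions each.

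The second chain, of 21 intergenic regions (chr4:134997924-135107233), was centred 68.1 kb from the start of Runx3, a Runt-domain factor of lymphoid and myeloid cells. Its mean rank was 51.2, 51.7, 63.3 and 62.8 in WT libraries, 52.3, 41.6, 63.9 and 64.9 in those of P300KO, 53.8, 46.5, 61.5 and 64.2 in TET2KO, and 52.5, 53.1, 60.5 and 61.8 in P300KO_TET2KO. Here too the deposit set, not the genotype, separated the lists. Gse1, whose product is found in a histone deacetylase corepressor complex, held 2 of the largest chains, of 20 and 14 regions.

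The chain of 16 regions named for Tmem189, a lipid desaturase gene, ran across the flank of Cebpb, a factor of granulocytes and macrophages. The 3 members with the Cebpb start as their nearest had mean ranks of 78.9 ± 3.73 in P300KO_TET2KO, 79.6 ± 2.47 in TET2KO, 79.1 ± 5.35 in P300KO and 75.9 ± 11.1 in WT (SD, n = 4). Of the 15 regions named for Pgs1, a gene of cardiolipin synthesis, 12 were linked to Socs3, the feedback inhibitor of cytokine receptors that signal through Stat3. These had 74.1 ± 2.63, 73.2 ± 2.28, 71.6 ± 5.97 and 70.02 ± 8.39 in the same order. The chain at Exoc6, an exocyst gene, had 15 regions, and 1 of them was linked to Hhex, a homeobox gene of blood progenitors. Elmo1, an activator of Rac signalling, held 16 regions, and Zfp608, Cmip, Id2 and Ppp1r16b had 15 each. Ctif, Pdcd1lg2 and S1pr1, the sphingosine-1-phosphate receptor of cell egress, had 14 each. Among these 15 largest chains the genotype means of members with a peak differed most for Ppp1r16b, from 10.5 of 15 in P300KO to 12.75 in both WT and P300KO_TET2KO.

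**Figure D2:**
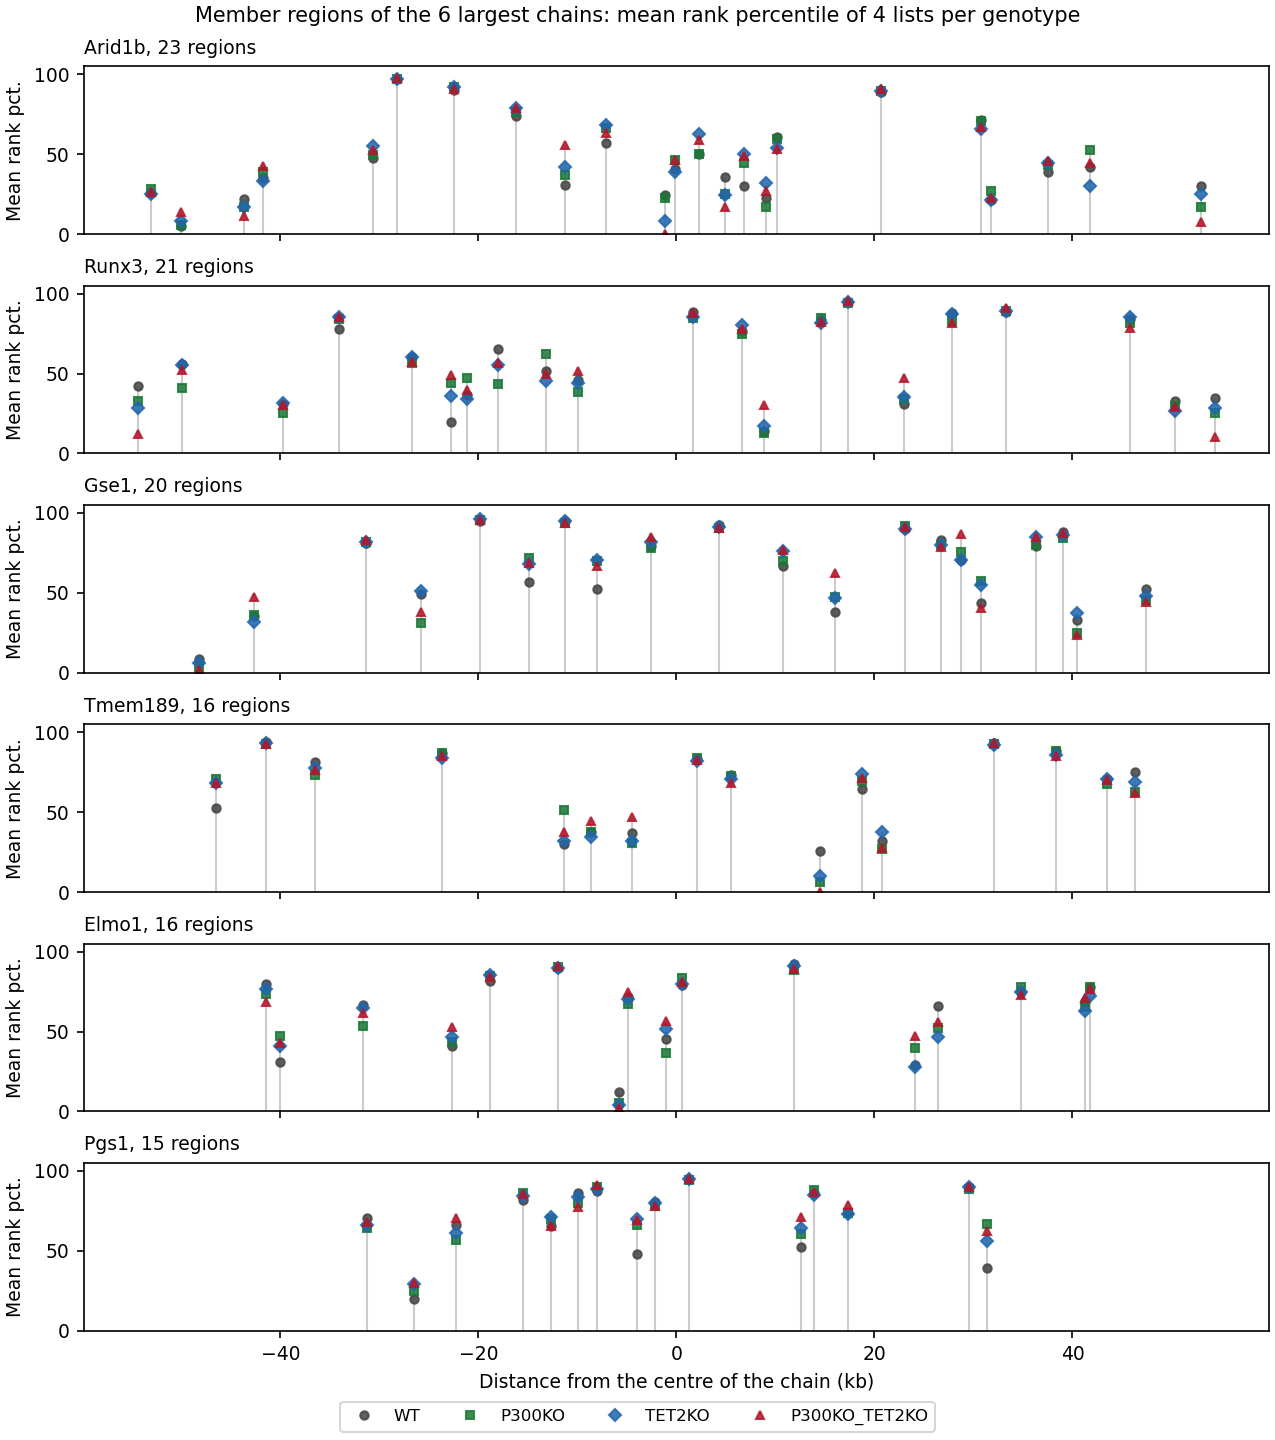
Mean rank percentile (y axis, 4 lists per genotype, a list without a peak counted as 0) of each member of the 6 largest chains, placed by its distance in kb from the centre of its chain. Members near 90 have nearly the same value in every genotype, as the Arid1b member at 97.0 to 97.5 does, and the spread between genotypes is seen at lower ranks.

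The genes next to the chains were counted for lists of blood genes, with all protein-coding genes beside them. A gene was taken as linked when a member lay in its body or had its start as the nearest. Of 35 transcription factor genes of these cells, 17 had a chain (48.6%), against 919 of all 20780 protein-coding genes (4.42%). Genes with a chain were longer, with a median of 38.6 kb against 17.0 kb without, and accessible promoters were commoner in this list: 31 of its 35 genes had a promoter peak in all 16 lists (88.6%), against 59.5% of all genes. The part of length and promoter access in the count was not tested. The 17 were Runx1, Gata2, Erg, Fli1, Meis1, Lmo2, Hhex, Myb, Ikzf1, Etv6, Bcl11a, Zfpm1, Sox4, Elf1, Ets1, Foxp1 and Lmo4.

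Runx1, which is required for blood stem cells to emerge, had 3 chains of 6 regions each, 2 inside the gene and 1 centred 372.0 kb from its start. Taken over 17 linked members, 14.75 had a peak in WT on average, 14.0 in the P300KO lists, 14.75 in TET2KO and 16.25 in P300KO_TET2KO, at mean ranks of 48.8 ± 12.6, 45.7 ± 9.05, 48.7 ± 7.30 and 50.8 ± 8.16 (SD, n = 4). Etv6, an Ets-family repressor, had 20 linked members in 2 chains and mean ranks of 45.3 ± 11.7, 46.8 ± 12.4, 49.4 ± 7.33 and 53.3 ± 5.69. The Runx1 differences were smaller than the SD within any genotype. For Etv6 the lists of the larger chain, of 12 regions, were higher in P300KO_TET2KO (46.0, 51.2, 58.0 and 53.7) than in TET2KO (41.9, 42.4, 53.5 and 49.2) within each deposit set and overlapped between the sets, which was not tested. Erg, another Ets factor, had 12 members inside the gene, of which 5, 12, 12 and 12 had a peak in WT libraries, 11, 10, 11 and 11 in those of P300KO, 10, 10, 12 and 11 in TET2KO and 9, 10, 11 and 12 in P300KO_TET2KO.

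Meis1, a homeobox partner of Hox proteins, had 7 members, and all 7 had a peak in each of the 12 lists that are not WT. Its mean rank was 58.1, 52.7, 71.5 and 72.6 in P300KO, 53.7, 50.2, 64.5 and 69.5 in TET2KO, and 55.0, 58.1, 70.8 and 69.2 in P300KO_TET2KO. The chain of 7 regions near Myb, a factor of progenitor growth, was centred 49.8 kb from its start and had mean ranks of 41.0, 27.0, 58.5 and 51.9 in P300KO, 36.4, 32.9, 53.8 and 52.9 in TET2KO and 39.6, 38.9, 60.6 and 54.5 in P300KO_TET2KO. Both loci were higher in set 2 than in set 1. At Myb the P300KO_TET2KO lists lay above those of TET2KO within each deposit set and overlapped those of P300KO in each, and at Meis1 they lay above TET2KO in set 1 only. These orders were not tested.

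Of 22 surface and cytokine receptor genes, 8 had a chain (36.4%): Cd34, Csf1r, Cxcr4, Ptprc, Cd47, Cd44, Tgfbr2 and Ifngr1. At Cxcr4, the receptor that holds progenitors in the marrow, 5, 3, 6 and 6 of 6 members had a peak in P300KO, 5, 4, 6 and 6 in TET2KO and 4, 4, 5 and 5 in P300KO_TET2KO. Its mean rank was 42.5, 32.8, 62.5 and 64.2, then 42.7, 42.2, 68.9 and 64.7, then 35.4, 41.5, 60.4 and 56.1. In each deposit set the P300KO_TET2KO lists lay below those of TET2KO, while in set 1 they overlapped P300KO. At Cd34, a surface marker of progenitors, 5 of 6 members had a peak in all set 1 lists of these 3 genotypes and 6 of 6 in all set 2 lists.

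Of 19 genes of cytokine signalling and its feedback, 6 had a chain (31.6%), among them Jak1, Socs1, Socs3, Lyn and Inpp5d. Inpp5d, which encodes the SHIP1 phosphatase of blood cells, had 13 regions inside the gene and between 11 and 13 with a peak in every list. Its mean rank was 61.7 ± 1.73 in P300KO_TET2KO, 59.8 ± 5.07 in TET2KO, 60.1 ± 2.67 in P300KO and 62.7 ± 5.74 in WT (SD, n = 4). Of 12 chromatin regulators of myeloid neoplasms on chromosomes 1 to 19, Tet3 and Jarid2 had a chain (16.7%), and Ep300, Crebbp and Tet2 had none.

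Genes of mature lineages were counted in the same way. Cebpb and Csf1r had one among 14 myeloid genes (14.3%), Notch1 among 15 lymphoid genes (6.67%), and 0 of the 15 megakaryocyte and erythroid genes did, 11 of which had a promoter peak in all 16 lists (73.3%). Beside the 4.42% of all protein-coding genes, lists of this size cannot show a lower share. Among 15 genes of other tissues the only one was Pdgfrb (6.67%), a receptor of mesenchymal cells that lies next to Csf1r. The rest of that list, among them Alb, Myod1 and Epcam, had no chain. Most protein-coding genes had none either, so this absence does not set these genes apart.

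With the deposit sets pooled, no difference between genotypes in the number of member regions with a peak was larger than the spread between libraries. P300KO lists had a peak in 87.3%, 76.4%, 97.8% and 97.1% of the 4836 members, TET2KO lists in 85.0%, 83.7%, 97.6% and 97.3%, and P300KO_TET2KO lists in 87.5%, 90.1%, 96.3% and 96.1%. Per chain this came to 6.75 ± 0.759 regions in P300KO, 6.85 ± 0.570 in TET2KO and 6.97 ± 0.330 in P300KO_TET2KO, and 6.74 ± 1.19 in WT (SD, n = 4). P300KO_TET2KO exceeded TET2KO by 1.60 percentage points (two-sided exact permutation test over 70 regroupings, p = 0.657, adjusted p = 0.8) and P300KO by 2.84 points (exact p = 0.686, adjusted p = 0.8), where 4 against 4 libraries can give no p below 0.0286. The sets went opposite ways: P300KO_TET2KO was higher than TET2KO by 4.46 points in set 1 and lower by a difference of -1.25 points in set 2, and against P300KO the differences were 6.98 and -1.29 points. Both P300KO_TET2KO lists of set 2 lay below all 4 single-knockout lists of that set, and both of set 1 lay above all 4. When the same share over the other distal WT regions was subtracted, an alternative added after the data were seen, the differences turned to -1.67 and -2.19 points (exact p = 0.286 and 0.343, adjusted p = 0.686 for both).

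For the rank of the members with a peak, too, no difference passed the test. Their median rank percentile was 62.9, 61.2, 68.5 and 68.4 in P300KO, 59.9, 61.8, 69.8 and 67.7 in TET2KO and 60.9, 60.6, 68.3 and 68.0 in P300KO_TET2KO, while WT gave 69.5, 65.4, 67.6 and 67.4. The means differed by -0.359 points between P300KO_TET2KO and TET2KO (exact permutation test, p = 0.8, adjusted p = 0.8) and by -0.829 points between P300KO_TET2KO and P300KO (exact p = 0.514, adjusted p = 0.8). Within each deposit set both P300KO_TET2KO lists lay below both P300KO lists, and permuting within the sets gave an exact p of 0.0556 (adjusted p = 0.222), the smallest it can give. Both lists of set 2 lay above both of set 1 in every genotype but WT, whose lists overlapped. Which members have a peak changes with the list, and with those lacking one set to rank 0 the differences became 0.579 and 0.542 points.

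**Figure D3:**
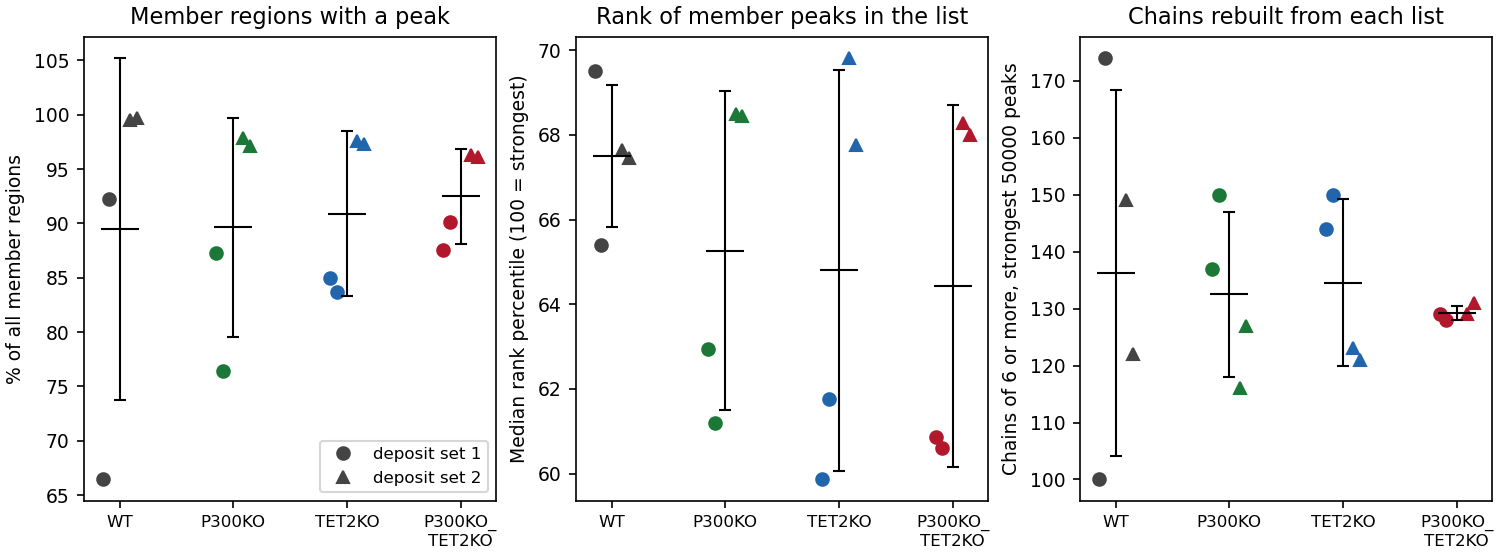
Share of the 4836 members with a peak, median rank percentile of those with a peak, and chains rebuilt from the strongest 50000 peaks of each list, for 4 libraries of each genotype (circles, deposit set 1; triangles, set 2; bars, mean ± SD; axes do not start at 0). In the genotypes other than WT the sets part in the first and second panel, and the P300KO_TET2KO lists fall between 128 and 131 rebuilt chains in the third.

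To compare chaining without a choice by WT, every list was chained on its own with its strongest 50000 peaks. WT lists gave 100, 174, 149 and 122 chains of 6 or more, P300KO lists 137, 150, 116 and 127, TET2KO lists 144, 150, 123 and 121, and P300KO_TET2KO lists 129, 128, 129 and 131. The differences in means were -5.25 for P300KO_TET2KO against TET2KO, -3.25 against P300KO, -3.75 for P300KO against WT and -1.75 for TET2KO against WT, and none passed the exact permutation test in any of the alternatives (lowest adjusted p = 0.400). The rebuilt chains held 7.05 ± 0.0345 regions in P300KO_TET2KO, 6.96 ± 0.107 in TET2KO, 7.004 ± 0.0424 in P300KO and 6.99 ± 0.104 in WT (SD, n = 4). P300KO_TET2KO exceeded TET2KO by 0.0987 and P300KO by 0.0507 regions (exact permutation test, p = 0.114, adjusted p = 0.229 for both) and lay above each within both sets, where the exact p was 0.0556 (adjusted p = 0.111), the smallest that permuting within sets can give. With a gap of 5 kb both differences turned, to -0.0987 and -0.251. The latter, against P300KO, had the smallest exact permutation p that the test can give (0.0286, adjusted p = 0.114). With a promoter distance of 1 kb the difference against P300KO was 0.0763, of opposite sign, at the same exact p and adjusted p. The difference with p300 loss, which comes together with Mx1-Cre, was compared between Tet2 backgrounds by permuting p300 labels within each. The exact p was 0.948 for chains and 0.322 for regions per chain. This shuffle assumes no p300 effect in either background and ignores the deposit sets, so it cannot decide whether the effects are equal. For chains, P300KO_TET2KO minus TET2KO was -18.5 in set 1 and 8 in set 2. P300KO minus WT was 6.5 in set 1 and -14 in set 2. With all peaks of each list, the shorter lists of set 1 gave 1040 to 1662 chains and the longer lists of set 2 gave 2831 to 3285. Within set 1 the order did not always follow list length. WT replicate 1 gave 1162 chains from 97666 peaks, and TET2KO replicate 1 gave 1210 from 90086.

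Single members were then compared by rank with limma, for the 38694 regions with a peak in all 16 lists. These held 2439 of the 4836 members (50.4%), and 42.8% of the other distal WT regions were in all 16 lists. For P300KO_TET2KO against TET2KO no member was called higher, where 0.00775% of all regions tested were, and 1 was called lower, where 0.0233% were (adjusted p under 0.05). Against P300KO the counts were 0 higher and 2 lower, with 0.00258% and 0.0129% of all regions. At an unadjusted p under 0.05, 80 members (3.28%) were higher and 117 (4.80%) lower than in TET2KO, where all regions gave 3.24% and 2.73%, and 130 (5.33%) were higher and 102 (4.18%) lower than in P300KO, where all regions gave 4.42% and 2.84%. The median difference of the members tested was 0.310 points against TET2KO and 0.450 against P300KO, with 0.262 and 0.372 over all regions tested and 0.465 and 0.525 over the distal ones, so that the members lay above the first and below the second. With the replicate block in place of the deposit set, 0 members were called against TET2KO and 1 against P300KO. In these fits of all 16 libraries, WT ranks enter the filter and the residual spread but not the contrasts. The calls lay close to the threshold: against TET2KO, 0 members were called without any one of the TET2KO or P300KO_TET2KO libraries, WT replicate 2, 3 or 4 or P300KO replicate 3, and against P300KO, 0 were called without any one of the P300KO_TET2KO libraries, P300KO replicate 2, 3 or 4 or WT replicate 3. The 2 contrasts share their P300KO_TET2KO libraries.

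The region called in both contrasts (chr3:121369255-121370813) was an intergenic member of the Alg14 chain, 56.5 kb from the nearest protein-coding start, that of Cnn3, a calponin gene. Its rank percentile was 54.1, 48.9, 68.5 and 68.7 in P300KO_TET2KO, 77.8, 73.8, 86.0 and 88.6 in TET2KO, 77.1, 84.6, 86.7 and 82.7 in P300KO and 87.4, 89.3, 93.7 and 93.4 in WT. All 4 P300KO_TET2KO values lay below those of the other 12 libraries. The difference was -21.5 ± 2.72 points (SE) against TET2KO (limma, adjusted p = 0.0414) and -22.7 ± 2.72 against P300KO (limma, adjusted p = 0.0221). Without the deposit set as a term, or over regions with a peak in the 8 libraries of the contrast, 0 members were called in either contrast.

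**Figure D4:**
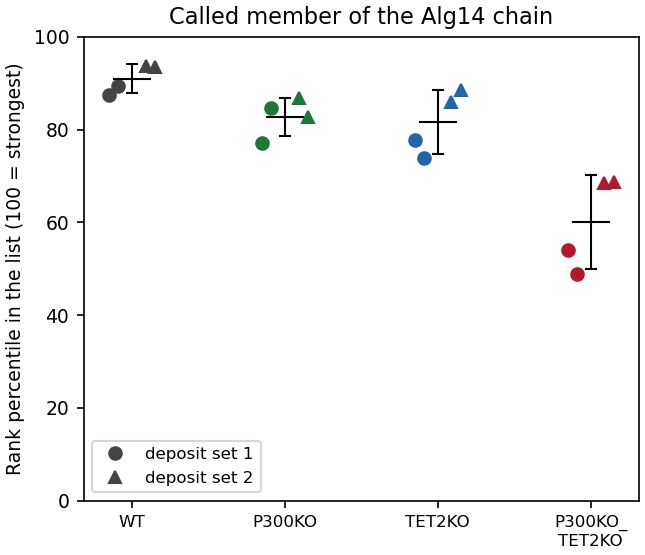
Rank percentile in each of the 16 lists (y axis, 100 = strongest) of the member of the Alg14 chain called by limma, by genotype (circles, deposit set 1; triangles, set 2; bars, mean ± SD of 4 libraries). P300KO_TET2KO values run from 48.9 to 68.7, below all 12 other values.

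Few members appeared or vanished as peaks. A peak in all 4 P300KO_TET2KO lists and in no TET2KO list was found for 2 members (0.0414%), where 0.0554% of all distal regions met this, and the reverse for 5 members (0.103%), where 0.0109% did. The 5 lay in the chains of Hivep3, Man1c1, Atp6v0a2, 1700016K19Rik and Ppard, and the 2 in those of Gm20388 and Slc7a8. Members had to be peaks in at least 3 WT lists, which a distal region in general had not, so these shares have different chances of a loss. Against P300KO, 0 members were gained, where 0.0616% of distal regions were, and 4 were lost, where 0.0322% were, in the chains of Tex35, Rbm19, Nsg2 and 5031439G07Rik. In P300KO and TET2KO against WT the rule allows no gain, since every member has a peak in at least 3 WT lists, and the count of 0 (0.00853% and 0.0123% of distal regions) says nothing about the members. Losses, 0 and 1 (0.0104% and 0.00663%), also rest on the lists that chose them. These regions were named after their values were seen. The 5 had mean ranks of 14.7 (Man1c1) to 34.1 (Atp6v0a2) in TET2KO, and the 4 lost against P300KO had 34.4 (Rbm19) to 47.1 (Tex35) in P300KO. The Tex35 region ranked at 16.3, 49.4, 77.1 and 45.4 there. The 2 gained had mean ranks of 4.25 (Gm20388) and 23.8 (Slc7a8) in P300KO_TET2KO.

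The chains with the largest differences between P300KO_TET2KO and TET2KO are given as a description, since they were picked by that difference. At Ppard, a lipid-sensing nuclear receptor gene, 4, 4, 6 and 5 of 7 members had a peak in P300KO_TET2KO, against 6, 7, 7 and 7 in TET2KO, 5, 5, 7 and 6 in P300KO and 4, 6, 7 and 7 in WT. At Gm43302 the counts were 4, 4, 4 and 4 of 6 in P300KO_TET2KO, 5, 5, 6 and 6 in TET2KO, 4, 2, 5 and 6 in P300KO and 1, 6, 6 and 6 in WT. P300KO_TET2KO lay below TET2KO in both deposit sets at both chains. Smaller falls in the mean count were seen at Jazf1 and Man1c1 (-1.25 each), and several chains tied for the next place at -1.0.

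The opposite was seen near Bcl11a, which encodes a zinc finger repressor of fetal globin genes that is also needed for lymphoid progenitors. Its chain of 7 intergenic regions was centred 298.4 kb from its start, and 6, 6, 7 and 7 members had a peak in P300KO_TET2KO, 3, 4, 7 and 7 in TET2KO, 5, 3, 7 and 7 in P300KO and 2, 7, 7 and 7 in WT. Its mean rank was 41.0, 43.5, 61.2 and 56.0 in P300KO_TET2KO, 22.8, 25.2, 56.6 and 51.6 in TET2KO, 34.1, 19.7, 56.8 and 54.4 in P300KO and 18.5, 43.7, 56.2 and 50.2 in WT. The gap to the single knockouts was thus found in set 1, and in set 2 the lists overlapped. Over all members, too, the P300KO_TET2KO lists of set 1 had more peaks, by 4.46 points against TET2KO and 6.98 against P300KO. The part of this wider difference in the values at Bcl11a was not tested. Rises in the mean count were also found at Arid1b (1.5) and at Hhat, Wdtc1, Tmem150c and Pip4k2a, which tied with Bcl11a at 1.25. By mean rank the chains at 4932438H23Rik, Hlx, Vps8 and Gm11084 rose by 12.2, 9.03, 8.39 and 8.14 points, and those at Lclat1, Acoxl and Cdh26 fell by 10.4, 10.3 and 10.1 points.

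The largest fall in rank, from 36.8 to 20.1 on average, was that of a chain of 7 regions near the start of chromosome 4 (chr4:3067293-3091149), named for Vmn1r2, a vomeronasal receptor gene 88.1 kb away. Of its sequence, 54.3% is repeat-masked in the reference, and it was the only chain of the 642 above 50%, where the median chain had 14.6%. It ranked at 84.1, 63.5, 21.4 and 26.0 in WT libraries, 47.3, 51.0, 21.3 and 23.7 in those of P300KO, 47.6, 46.9, 36.1 and 16.8 in TET2KO and 29.9, 24.7, 9.57 and 16.1 in P300KO_TET2KO. In every genotype both of its set 1 values lay above both of its set 2 values. The part of repeats in these values was not tested.

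Members were compared with the other 37250 distal WT regions in the 12 lists that did not choose them. Their median rank percentile was higher in 12 of 12 lists, by 1.83 points on average (64.8 against 63.0, exact sign-flip permutation test over all arrangements of the 12 signs, adjusted p = 0.000610), and their peaks were wider by 20.5 bp (438.6 against 418.1 bp, 12 of 12 lists, same exact adjusted p). Both differences were larger in set 1, with 2.56 points and 31.8 bp, than in set 2, with 1.11 points and 9.25 bp. In the single lists they ran from 0.637 to 3.01 points and from 1.5 to 40 bp. Among the strongest 50000 peaks of each list the rank difference was 4.60 points. The same regions recur in each list, so these p-values cover the spread between libraries and not between regions. The family over which they were adjusted also held the string shares described next.

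The sequence at the summits is given as a description with no p, since nearly the same reference bases are read in each list and the 12 lists are not separate measurements of them. Strings were searched in the 201 bases around each summit on both strands: AGATAA or TGATAA for Gata, GAGGAAGT or AAGGAAGT or GGGGAAGT or AGGGAAGT for Spi1, TGTGGTT or TGTGGTC or TGCGGTT or TGCGGTC for Runx, TTGCNNAA or TTACNNAA for Cebp, CAGATG for Tal1, TGAGTCA or TGACTCA for Ap1, CAACTG or CAACGG or TAACTG or TAACGG for Myb, and the Ctcf core motif by its name. A Ctcf string was found at 6.79% of member summits and 8.83% of the others, and a Gata string at 15.3% and 17.1%, both lower in 12 of 12 lists. The Spi1 string was at 22.2% against 21.1% and the Runx string at 22.4% against 21.3%, both higher in 12 of 12 lists. GC content was 52.0% against 50.1%. Spi1 and Runx factors direct myeloid and stem cell programs, and Ctcf sets domain boundaries. A Cebp string was less common at member summits (-0.751 points, lower in 12 of 12 lists) and an Ap1 string more common (0.414 points, higher in 12 of 12). For Tal1 the difference was 0.604 points (higher in 11 of 12) and for Myb -0.366 (higher in 2 of 12).

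By chain size, Ctcf, Spi1 and Ap1 strings had their largest step between chains of 6 to 9 and chains of 10 or more, whereas Gata strings fell from 17.7% in single regions to 16.7% and 15.1% and stood at 16.1% in the largest class. Runx strings went from 21.4% to 21.2%, 22.3% and 22.8%. Ctcf strings were found at 9.49% of the summits of single regions, 8.42% in chains of 2 to 5, 7.41% in chains of 6 to 9 and 4.29% in chains of 10 or more. This last class held only 956 regions in 80 chains. The Spi1 string went from 21.3% to 21.0%, 21.4% and 25.4%, and the Ap1 string from 6.66% to 7.54%, 7.24% and 9.13%. GC content of the windows rose alongside, from 49.4% to 50.6%, 51.9% and 52.5%, and its part in the string shares was not tested. Among all 211104 distal regions the Ctcf string stood in 2.46%, the Spi1 string in 14.1%, the Runx string in 14.9% and the Gata string in 15.9% of windows at the strongest summit. A string is a match of letters and not a bound site. The members' repeat-masked share was much the same as that of the other regions, with medians of 11.82% and 12.45%.

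**Figure D5:**
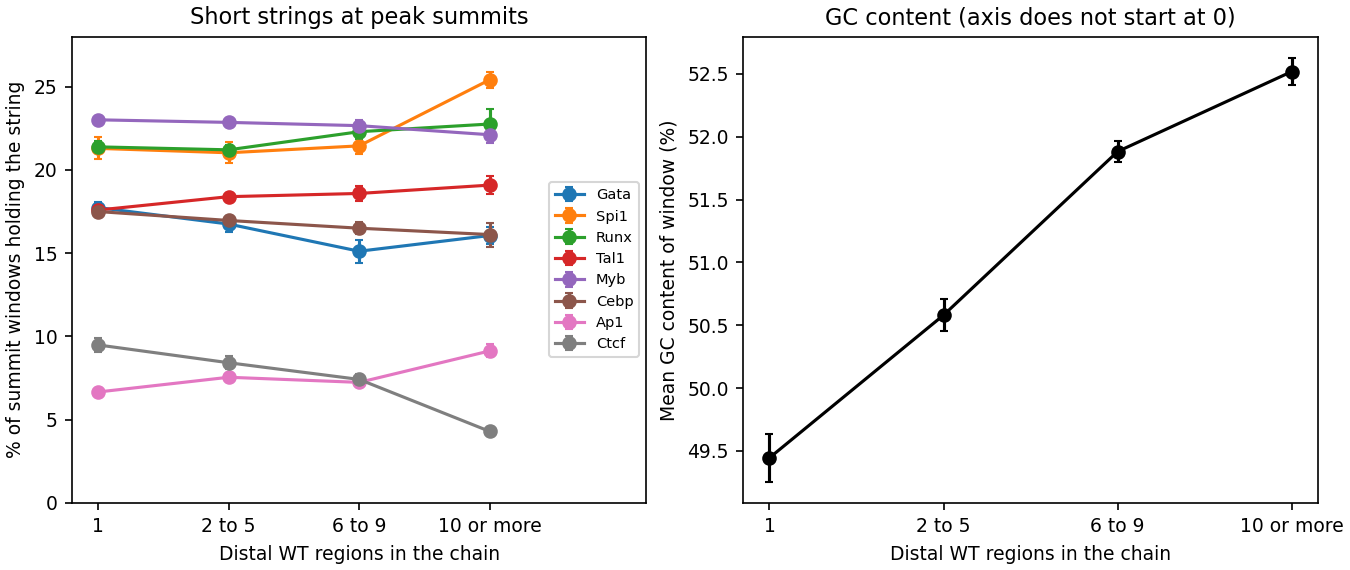
Share of 201-base summit windows holding each string (left, %) and mean GC content of the windows (right, %, axis not from 0) for distal WT regions by the size of their chain, as mean ± SD of the 12 lists that are not WT. The lists read nearly the same bases, so the SD does not cover the spread between regions. Ctcf strings fall to 4.29% and Spi1 strings reach 25.4% in chains of 10 or more.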

How the data were processed

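ATAC-seq peaks of sorted mouse HSPCs were read from 16 narrowPeak lists. Per the submitters' processing notes and the study's methods, the authors trimmed reads with cutadapt 1.9.1, aligned them to mm10 with Bowtie2 2.2.6 and called peaks per library with MACS2 2.1.0. The deposited lists give fold enrichment, a ratio to local background, and −log10 p and −log10 q, all computed by the authors within a single library. They were used only as ranks or filters within a list. A removal of blacklisted regions is not given in the sources used here.

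Several summits of an interval were counted as 1 peak, the strongest. Transcript starts came from GENCODE M21, and sequence from the GRCm38.p6 reference, the assembly behind mm10. Two-sided exact permutation tests served for per-library values and single regions with limma 3.58.1 (R 4.3.3) on rank percentiles, with genotype and deposit set as terms, for regions in all 16 lists. Benjamini-Hochberg adjustment covered each family of tests and the threshold was 0.05. Chaining, string search and limma were tested on simulated data. The tools were pandas 2.3.3, pysam 0.24.0 and numpy 2.4.6 under Python 3.11.15.

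Named chains were the 15 with most regions, those named by a gene of the lists, and the 5 largest rises and falls in count and in rank for P300KO_TET2KO against TET2KO. Members, lists, strings and tests were chosen with earlier results of these data known. The other settings tried were a −log10 q minimum of 2, gaps of 5 kb, a promoter distance of 1 kb, chains of 10 or more, 4 of 4 WT lists, 50% overlap, each deposit set alone, tests within sets, replicate blocks and leaving out each library.

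Replicate numbers pair the samples by the correlation of deviations from genotype means over the members (0.202 to 0.516 for P300KO_TET2KO with the same-numbered single-knockout libraries). Within a deposit set it was between -0.0685 and 0.0690, so the pairing is that of the sets. Some named items and 1 sequence are not reported here.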

Additional observations from a re-analysis of the deposited data

Results flagged for a closer look

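For the 44 chains that are largest or named by a listed gene, for the called regions and for 6 values per library, 212 groups of 4 libraries were checked for a library far from the other 3. Such a gap was found in 12 groups (5.66%), where the 95% critical value used gives about 1 in 20 for independent groups. These groups share libraries and are not independent. In 10 of these the library was WT replicate 1, which had peaks in the fewest members, so that members without a peak at rank 0 pull the chain means down. Its mean rank was 56.3 at the Pgs1 chain beside Socs3, 57.2 at Exoc6, 48.6 at Zfp608, 38.4 at the smaller Gse1 chain, 27.1 at Pdcd1lg2 and 34.3 at S1pr1. It was 25.4 at Erg, 32.8 at Ptprc, 26.7 at Ifngr1 and 21.5 at the far Runx1 chain. The remaining 2 were of P300KO replicate 2, with 55.8 at Exoc6 and 46.0 at Lmo2. That list had the fewest peaks of all 16.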

How the results depend on the processing

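None of the differences between genotypes in members with a peak, median rank, rebuilt chains or regions per rebuilt chain passed its test, in the tests as reported or in any alternative run (lowest adjusted p = 0.0571). Permuting within deposit sets and the replicate block can give no p below 0.0556 and 0.125, so they could not pass. With 4 against 4 libraries, a lone exact permutation p of 0.0286, the smallest possible, adjusted to 0.114. The lowest adjusted p of 0.0571 likewise came from a lone exact p of 0.0286, in a smaller family without TET2KO replicate 2. A single contrast could therefore not pass by itself, and the lack of a pass does not show that the genotypes are alike. Several signs turned, and the causes were not tested. With a −log10 q of at least 2, the median rank differences of P300KO_TET2KO became 1.96 points against TET2KO and 1.98 against P300KO, rebuilt chains differed by 182.25, 231.25, 117.25 and 166.25 (the single knockouts P300KO and TET2KO, each against WT), and regions per rebuilt chain by 0.141 for TET2KO against WT. With members lacking a peak at rank 0 the rank differences were 0.579 and 0.542, and after subtracting the other distal WT regions, added after the data were seen, 0.0306 and 0.376, with shares of -1.67 and -2.19 points. Members chosen without WT replicate 1, also added later, gave 0.164 points of rank against TET2KO. With a gap of 5 kb, rebuilt chains differed by 0.75 (against P300KO) and 1.25 (TET2KO against WT) and regions per chain by -0.0987, -0.251 and -0.0575 (P300KO against WT). With a promoter distance of 1 kb, rebuilt chains differed by 5.0 and 9.5 (P300KO, TET2KO, each against WT) and regions per chain by -0.0176 and 0.00943. With all peaks, regions per chain differed by -0.0145 against TET2KO and by 0.137 for TET2KO against WT.

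Leaving out each library in turn, the share differed by -0.787 to 3.83 points against TET2KO and -1.58 to 5.57 against P300KO, and the median rank by -2.004 to 1.31 and -2.18 to 0.446. Rebuilt chains differed by -9.75 to -0.0833 and -8.75 to 2.58, and against WT by -15.8 to 8.83 (P300KO) and -13.8 to 10.8 (TET2KO). Regions per rebuilt chain differed by 0.0510 to 0.133 against TET2KO, 0.0364 to 0.0695 against P300KO, and by -0.0216 to 0.0572 and -0.0705 to 0.0120 in the latter contrasts. Members called by limma numbered 0 to 3 in each contrast. Against TET2KO they numbered 0 without any one of the 4 TET2KO or 4 P300KO_TET2KO libraries, WT replicates 2, 3 or 4, or P300KO replicate 3, 2 without P300KO replicate 2 and 3 without WT replicate 1. Against P300KO they numbered 0 without any of the P300KO_TET2KO libraries, P300KO replicates 2, 3 or 4 or WT replicate 3, and 1 without P300KO replicate 1. Without the deposit set as a term, or with regions that have a peak in the 8 libraries of the contrast, 0 members were called in either contrast. The replicate block gave 0 and 1 and changed no other call, with median rank differences of -0.359 and -0.829 points. The members' differences from other distal WT regions in rank and width kept their direction and call in all 4 alternatives run for each, but not their size (1.11 to 4.60 points and 9.25 to 36 bp). Among the string shares, the differences in set 1 alone were 0.605 points for Tal1 and -0.219 for Myb. String shares re-read nearly the same sequence in each list and are given as description, with no p. The lists give no depth per library, so a member without a peak is only a member not detected.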
